A study of Mus musculus with 68 samples.

Results

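Normal duodenum was compared between Cftr knockout and Cftr wildtype mice, with 4 of the 23 specimens of the series and 16 of its 68 deposited columns. The members were the columns whose specimen labels name normal duodenum, and the values of a specimen were averaged over its columns as log2(FPKM + 1), where FPKM is the number of fragments scaled to transcript length and to library size. FPKM values are given below as specimen means, always in the order knockout 1, knockout 2, wildtype 1 and wildtype 2. These mice were C57BL/6, 3 months old (raised to 12 weeks), and carried no Apc mutation. Per the labels' protocols, the knockout animals were Apc+/+ with floxed Cftr and Villin-Cre (Cftrfl/fl-Villin-Cre), and the controls were Apc+/+ Cftr+/+. The Villin promoter drives Cre in the epithelium of the intestine, so the other cell types of the gut wall keep Cftr. The labels do not say whether the controls carried Cre, so an effect of Cre and one of the Cftr deletion cannot be told apart. The labels call the tissue epithelium, while the design text calls it whole duodenum from which the villi were removed, and it counts 3 animals per genotype where the labels hold 2.

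Cftr is the chloride and bicarbonate channel of the apical membrane of intestinal epithelium, and it is opened by cyclic AMP and cyclic GMP signalling. In the duodenum it secretes the bicarbonate and fluid that neutralise gastric acid and let mucins unfold and leave the crypts. Its loss in mice is known for thick mucus, bacterial overgrowth and altered innate defence of the small intestine, and in people for cystic fibrosis. The comparison asks which other genes differ in normal duodenal tissue when epithelial Cftr is removed, before any tumour is present.

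The tissue was rich in absorptive epithelium. Epcam, the epithelial adhesion molecule, was at 732, 761, 660.0 and 668 FPKM. The villus products Fabp1, a fatty acid binding protein, at 6790 to 8202 FPKM and sucrase-isomaltase, Sis, at 747 to 795 FPKM were abundant in all 4 specimens. Muc6, a mucin of Brunner glands, was at 0.0672 to 0.281 FPKM. Thus markers of villi were present, against the design text's account that the villi were removed. The marker of the submucosal glands was near 0, which does not bear on that account. Smooth muscle genes were also abundant, summing to 915 to 982 FPKM over 10 markers. The specimens thus held smooth muscle as well as epithelium, where the label names epithelium alone. These markers do not tell whether the full wall was sampled. In bulk tissue fewer cells of a type and less RNA per cell cannot be told apart. The Y-linked gene Ddx3y was at 12.9 to 14.9 FPKM and Xist, which females express, at 0.0838 to 0.461 FPKM, so all 4 specimens had the pattern of males.

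The 16 columns had relative depths of 0.844 to 1.12, a 1.33-fold range, and 28.0% to 29.8% of their values were 0. The 2 wildtype specimens were as alike as lanes of 1 library. Over 9420 genes their SD on the log2 scale was 0.103 in run 1 and 0.122 in run 2, against 0.113 and 0.111 expected from the spread between lanes, and against 0.131 to 0.157 between the runs of a single specimen. In the other groups the SD was 2.01 to 5.99 times the one expected. The wildtype specimens thus differed by about the noise between lanes, and by less than the runs of 1 specimen did, and were counted as 1 sample, so the main test set 2 knockout samples against 1 wildtype sample. The knockout specimens differed from each other by an SD of 0.383 and 0.355 in runs 1 and 2, as much as either differed from wildtype (0.325 to 0.385). Knockout 1 stood apart by pancreatic enzyme and B cell genes, and knockout 2 by heat shock genes. For the lists on which a statement rests, medians are therefore also given for each knockout specimen against the wildtype mean.

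No gene passed the test over all genes. Of 14098 genes tested with limma, 0 (0%) had an adjusted p under 0.05, and 371 (2.63%) had an unadjusted p under 0.05, of which 101 (0.716%) were higher in knockout and 270 (1.92%) lower. The smallest adjusted p was 0.0822. Both knockout specimens lay above both wildtype specimens for 28.4% of genes and below them for 25.0%, the difference was positive for 52.4%, and the median log2 difference of all genes was 0.008. These shares are the background for every list below. Counting the wildtype specimens as 2 samples gave 33 genes past the adjusted p, 7 higher (0.0497%) and 26 lower (0.184%), of which 13 reached 5 FPKM in a group. Among them were Tfip11, Gprin1 and Oxct1 on the higher side, and Plin1, Scd1, Ghr, P2rx1, Lpl, Ednrb, Igfbp3, Hbb-b1 and Plvap on the lower side. Since the spread between those wildtype specimens was that of technical lanes, these calls are given as a description.

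The Cftr gene lies on chromosome 6 from 18170687 to 18322768 (GRCm38, plus strand), and its RNA was at 33.0, 47.2, 31.3 and 32.0 FPKM. Both knockout values lay above both wildtype values, with a log2 difference of 0.31 (SE 0.42, adjusted p = 1 by limma). A value for the whole gene sums deleted and retained exons and all cell types, so it checks neither the deletion nor the label. Apc RNA was at 9.85, 12.0, 10.3 and 10.7 FPKM, with overlapping groups.

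Genes that move ions with or beside Cftr were close to wildtype as a group. All 31 members of the list were tested. Of these, 19 differences were positive (52.4% of all genes were), and 16 members lay above and 6 below wildtype in both knockout specimens, beside 28.4% and 25.0% of all genes, and none had an unadjusted p under 0.05. The median log2 difference was 0.090, and 0.0051 with quantile normalisation. Across the alternative settings 22 of the 31 kept their sign and 9 did not. Atp1b1, a subunit of the pump that drives secretion, was at 1335, 1267, 1093 and 1099 FPKM. The groups did not overlap, with a log2 difference of 0.25 (SE 0.26). Of the chloride entry route, the cotransporter Slc12a2 was lower in both knockout specimens, at 29.5, 35.4, 40.0 and 40.5 FPKM. The basolateral potassium channel subunit Kcne3 was at 104, 103, 88.0 and 90.4 FPKM, while its partner Kcnq1 overlapped between groups at 36.7, 41.8, 36.6 and 37.4 FPKM.

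Genes of bicarbonate handling showed small differences of both signs. The apical exchangers Slc26a6 (208, 168, 164 and 161 FPKM) and Slc26a3 (79.3, 85.6, 88.8 and 89.8 FPKM) lay on opposite sides of wildtype. The basolateral bicarbonate importers Slc4a4 (23.1, 26.5, 21.7 and 21.2 FPKM) and Slc4a7 (66.0, 52.8, 47.2 and 47.2 FPKM) were higher in both knockout specimens. Carbonic anhydrase 4, Car4, was at 421, 292, 264 and 261 FPKM, with an SE of 1.44 on the log2 scale around a difference of 0.41. The sodium and proton exchanger Slc9a3 did not separate the groups, at 48.1, 43.9, 46.0 and 46.4 FPKM. The other chloride channels of the list, Clcn2 (63.1 to 69.0 FPKM) and the calcium-activated Ano1 (2.15 to 2.84 FPKM), differed little, and the Ano1 values were lower in both knockout specimens.

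Scaffold proteins that hold apical transporters included the lowest difference of the list. Pdzk1 was at 75.6, 94.4, 131 and 130.3 FPKM, and Slc9a3r2 (NHERF2) at 9.44, 9.89, 15 and 14.3 FPKM. Both were below wildtype in both knockout specimens, with log2 differences of -0.62 (SE 0.53) and -0.56 (SE 0.30), and neither passed the test (adjusted p = 1 by limma). The related scaffold Slc9a3r1 (NHERF1), which binds the tail of Cftr, was at 621, 633, 583 and 579.6 FPKM. The water channel Aqp1 was lower at 76.8, 80.6, 109 and 110.5 FPKM, and endothelial markers, among which Aqp1 is also expressed, were lower too (below). Whether their lower level takes part in the Aqp1 value was not tested. In the guanylin pathway, which opens Cftr, no member had an unadjusted p under 0.05, with Guca2b at 1869 to 2212 FPKM, Guca2a at 192 to 233 FPKM and their receptor Gucy2c at 134 to 143 FPKM.

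**Figure D1:**
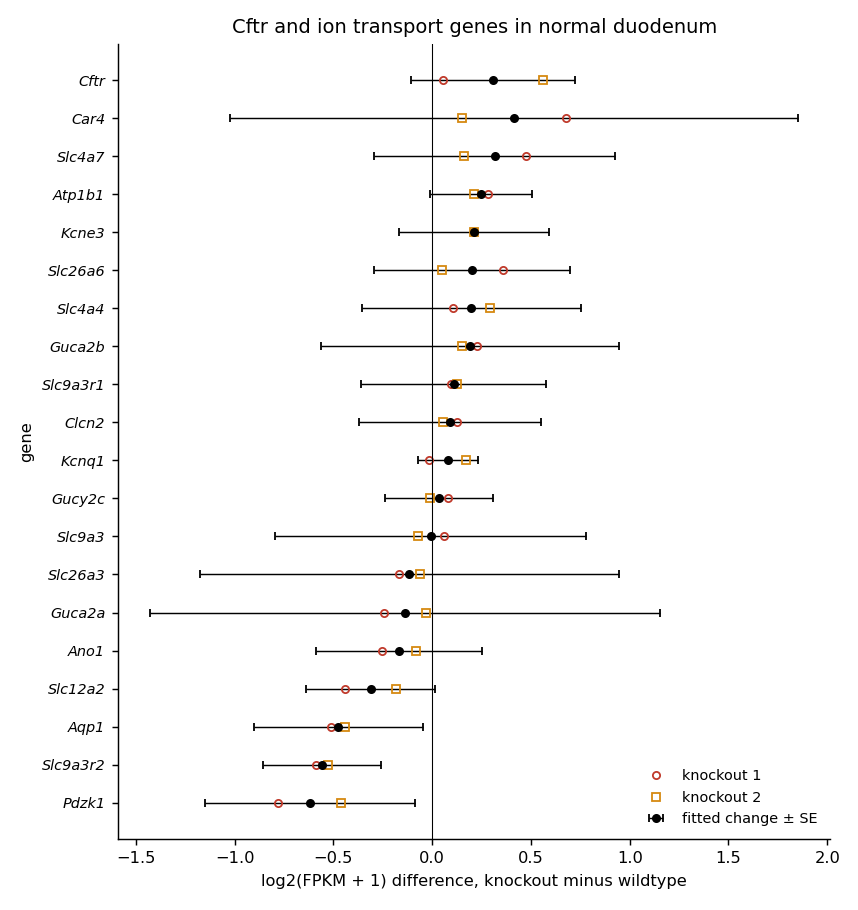
Log2(FPKM + 1) difference between knockout and wildtype (horizontal axis) for Cftr and the 19 ion transport genes described in the text (vertical axis). Black points are the fitted differences with their SE, open red circles knockout 1 and open orange squares knockout 2, each against the wildtype mean. The fitted differences lie between -0.62 and 0.41, and no gene passed the test.

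A few abundant defence genes of the epithelium lay far above wildtype. Reg3b, an antimicrobial lectin of enterocytes and Paneth cells, was at 8621, 30173, 1538 and 1486 FPKM. The related lectin Reg3g, which kills Gram-positive bacteria, was at 3945, 12797, 1037 and 1014 FPKM. Both knockout specimens were far above both wildtype specimens, knockout 2 more so than knockout 1, with log2 differences of 3.41 (SE 1.88) for Reg3b and 2.79 (SE 1.53) for Reg3g. The sequencing runs gave like values, as Reg3b in knockout 2 was at 30247 FPKM in run 1 and 30100 FPKM in run 2, and in wildtype 1 at 1474 and 1601 FPKM. Neither gene passed the test (adjusted p = 1 by limma). In the specimens outside normal duodenum Reg3b ranged from 4.89 to 12484 FPKM. Their neighbour Reg3a went the other way, at 247, 125, 469 and 465 FPKM.

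Reg3b, Reg3a and Reg3g lie close together on chromosome 6 (78370657 to 78373466 plus, 78380709 to 78383827 plus and 78466269 to 78468872 minus, GRCm38). The 80 bases before the RefSeq start sites of the pair that was higher together are printed to show how alike their core promoters are, with the letters TATAAAA in capitals (Reg3b chr6:78370805-78370884, plus strand; Reg3g chr6:78468875-78468954, minus strand; RefSeq, GRCm38.p6). Of the Reg3b bases, 24 lie in an exon of 1 GENCODE transcript that starts earlier.
Reg3b: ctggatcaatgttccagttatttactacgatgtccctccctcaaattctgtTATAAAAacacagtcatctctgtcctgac
Reg3g: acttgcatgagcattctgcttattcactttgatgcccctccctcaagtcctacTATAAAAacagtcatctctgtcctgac
In an alignment of 82 columns 62 bases were identical (75.6%). Reg3a, which went the other way, was not aligned, so this likeness may not be particular to the pair. Whether the sequence takes part in the shared difference was not tested. TATAAAA occurs on either strand in the 250 bases before the start of 5.85% of the 27025 gene symbols in the promoter table.

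The dual oxidase of the epithelium and its maturation factor, which make hydrogen peroxide at the apical surface and are encoded head to head on chromosome 2, were also higher together. Duox2 was at 39.2, 44.0, 11.9 and 11.8 FPKM, and Duoxa2 at 44.7, 24.9, 10.8 and 12.1 FPKM. The groups did not overlap, and the log2 differences were 1.73 (SE 0.86) and 1.49 (SE 1.06). Lypd8, a secreted protein that keeps flagellated bacteria from the epithelium, was at 3125, 4294, 2407 and 2383 FPKM. In contrast, the acute phase genes Saa1 (1.97, 12.5, 2.97 and 1.28 FPKM) and Lcn2 (2.22, 6.59, 2.29 and 3.02 FPKM) had overlapping groups. So did the nitric oxide synthase Nos2 (3.38, 12.1, 12.1 and 12.0 FPKM). Pigr, the carrier of secretory IgA, was at 2029 to 2052 FPKM in all 4 specimens. Over the whole list of 18 defence genes 7 lay above and 4 below wildtype in both knockout specimens, beside 28.4% and 25.0% of all genes. The median log2 difference was 0.29, and no member had an unadjusted p under 0.05. The median was 0.18 in knockout 1 and 0.19 in knockout 2, 0.49 in run 1 and 0.18 in run 2, and 0.54 with a pseudocount of 0.1.

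Goblet cell genes were all of positive sign, mostly by small amounts. Of 16 genes in the list 15 were tested, 15 differences were positive, 12 members lay above wildtype in both knockout specimens and 0 below, and the median log2 difference was 0.25 (0.14 in knockout 1 and 0.34 in knockout 2). Over all genes 52.4% of the differences were positive, and 28.4% of genes lay above and 25.0% below. No member had an unadjusted p under 0.05. Retnlb, the goblet cell antimicrobial RELMbeta, was at 42.9, 18.6, 1.07 and 1.46 FPKM. Gcnt3, which builds branched mucin glycans, was at 48.4, 49.5, 24.8 and 24.0 FPKM, and Clca3, a secreted mucus component, at 921, 523, 371 and 370.3 FPKM. For these 3 genes the groups did not overlap, with log2 differences of 3.74 (SE 2.09), 0.98 (SE 0.70) and 0.90 (SE 1.01). For Clca3 the knockout specimens lay further apart than knockout 2 lay from wildtype. The gel-forming mucin Muc2 was at 124, 136, 109 and 106 FPKM and the trefoil peptide Tff3 at 3743, 4137, 3302 and 3317 FPKM, differences of 0.27 (SE 0.85) and 0.25 (SE 0.42). The chaperone of mucin folding Agr2 was at 435, 635, 392 and 396 FPKM. Epithelial markers were of the same sign, with 10 of 13 positive, a median of 0.15 and sums of 7394, 8000, 6570 and 6558 FPKM, and their part in the goblet cell differences was not tested.

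**Figure D2:**
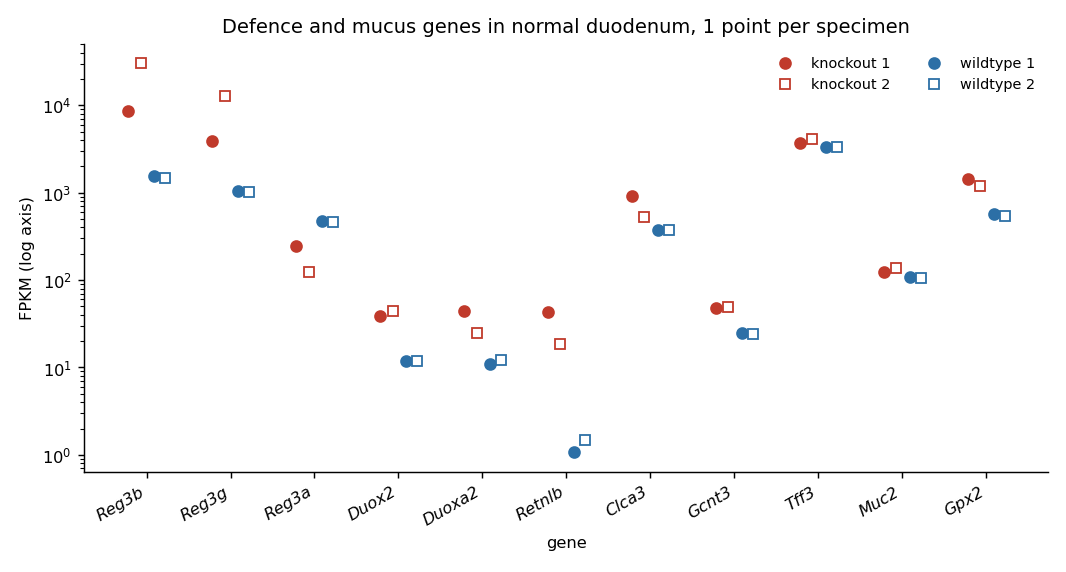
FPKM (log axis) of 11 genes of epithelial defence and mucus in the 4 duodenum specimens. Red symbols are knockout and blue symbols wildtype, with circles for specimen 1 and squares for specimen 2. The wildtype symbols of a gene nearly coincide, and the knockout symbols lie above them for every gene shown except Reg3a.

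Paneth cell genes were of mixed sign. Lysozyme, Lyz1, was at 2311, 2981, 4314 and 4273 FPKM, intelectin, Itln1, at 1066, 1163, 1902 and 1870 FPKM, and the abundant defensin Defa24 at 12183, 10883, 22397 and 21662 FPKM. These were all lower in both knockout specimens, as were 8 of the 15 tested members of the list, while 2 were higher. Among the alpha-defensins Defa20 was higher at 156, 416, 49.2 and 60.1 FPKM (log2 difference 2.21, SE 1.76). Alpha-defensins are near-identical copies that share reads, so values of single copies are uncertain. The largest difference of all tested genes was that of another copy, Defa4, at 61.1, 11.7, 790.5 and 570.1 FPKM, and was chosen after its values were seen. Its knockout specimens were 3.31 apart on the averaged log2(FPKM + 1) scale, more than these FPKM means give. Columns of the same knockout specimen thus disagreed, and the size of the difference is uncertain. The list had a median log2 difference of -0.28, which was -0.56 in knockout 1 and -0.32 in knockout 2, and 1 member had an unadjusted p under 0.05. Among all genes 25.0% lay below and 28.4% above wildtype in both knockout specimens, and 2.63% had such a p.

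The genes with the smallest p of positive sign were led by Tfip11, a splicing factor of the lariat spliceosome. It was at 21.0, 22.1, 13.8 and 13.6 FPKM (chromosome 5, 112326358 to 112338073, plus strand). Srrd, whose gene overlaps its end on the other strand (112337392 to 112343040), was at 15.1, 15.1, 10.3 and 9.49 FPKM. The log2 differences were 0.62 (SE 0.11, adjusted p = 0.124 by limma) and 0.56 (SE 0.15, adjusted p = 0.546). No strandedness is given in the sources used here, so reads from the overlap of the pair cannot be assigned to one gene. Tpst2, the next gene upstream of Tfip11 on the same strand, was at 12.9, 12.6, 9.81 and 10.2 FPKM (0.32, SE 0.12), and was looked at because of its position.

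Wildtype was below the other Cftr genotypes for Tfip11 and Srrd across the series, which is given as a description since Tfip11 was chosen for its difference here. Outside normal duodenum Tfip11 was at 17.8 to 22.2 FPKM in 9 specimens labelled Cftr knockout, 17.3 to 21.9 FPKM in 4 heterozygous ones and 11.4 to 13.7 FPKM in 6 wildtype ones. Srrd was at 12.8 to 15.2, 15.8 to 17.3 and 7.18 to 11.2 FPKM in the same specimens. For neither gene did wildtype overlap with the other genotypes. Several of these specimens share an animal number with each other, as all the wildtype tumours do, or with a duodenum specimen. They are thus not separate animals of a genotype. In colon the difference was of the same size, and the change in duodenum minus that in colon was -0.017 (SE 0.14) for Tfip11. Tpst2 did overlap, at 9.53 to 14.4 FPKM in knockout and 8.95 to 14.1 FPKM in wildtype specimens outside duodenum.

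**Figure D3:**
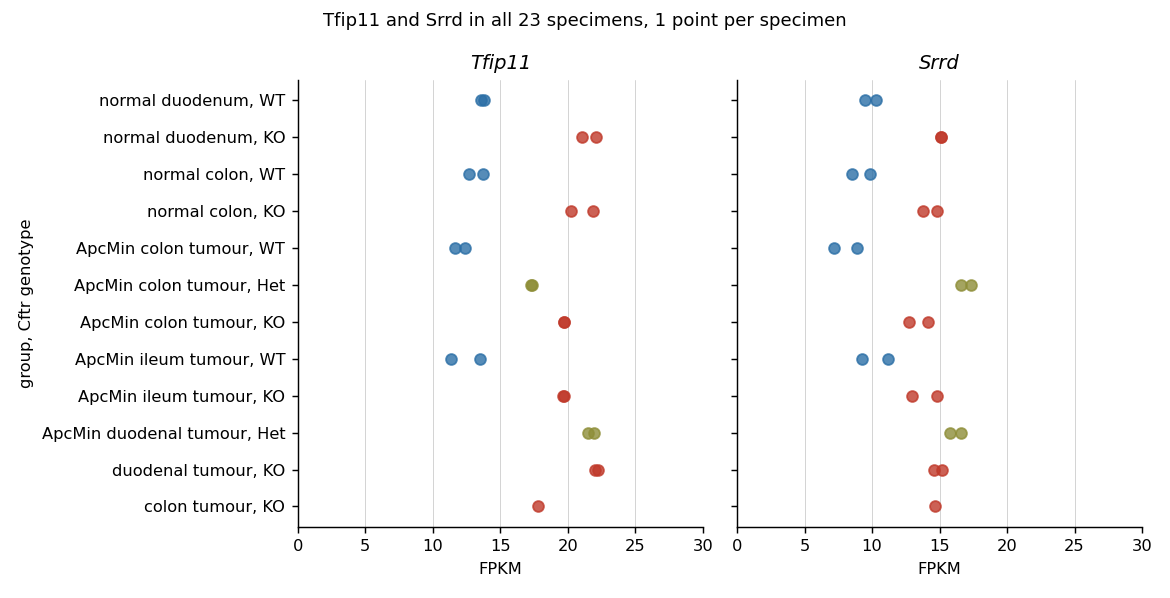
FPKM of Tfip11 and Srrd (horizontal axes) in all 23 specimens, grouped by tissue and Cftr genotype (vertical axis), with blue for wildtype, red for knockout and olive for heterozygous. The wildtype specimens end at 13.8 FPKM for Tfip11 and 11.2 FPKM for Srrd, below all others.

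Other genes of positive sign with a small p came from several pathways. Gprin1, a neurite growth protein, was at 4.82, 5.57, 2.02 and 1.94 FPKM (log2 difference 1.05, SE 0.19, adjusted p = 0.125 by limma). Gpx2, the glutathione peroxidase of the gut epithelium, was at 1446, 1187, 569 and 543 FPKM, which made it one of the most abundant genes of the group (1.23, SE 0.35). Both genes were chosen by a small p and by groups that do not overlap, so their separation is no separate result. Pla2g5, a secreted phospholipase A2, was at 11.1, 12.8, 2.38 and 2.57 FPKM. The nucleotide enzymes Nudt5 (56.0, 71.4, 38.9 and 36.7 FPKM) and Guk1 (173, 161, 108 and 112 FPKM), the ADP-heptose sensor kinase Alpk1 (8.75, 15.3, 4.96 and 4.98 FPKM) and the actin regulator Inf2 (6.04, 5.34, 2.24 and 2.33 FPKM) followed. Mboat1, an acyltransferase, was at 4.21, 6.22, 1.40 and 1.48 FPKM, and the transporter Slc16a9 at 22.7, 6.25, 2.59 and 2.86 FPKM. The remaining ones were Suco (16.9, 14.2, 12.1 and 12.2 FPKM) and 9130008F23Rik (9.92, 7.81, 5.31 and 5.03 FPKM). B3galt5, a glycosyltransferase of the intestinal mucosa, had a larger difference with a larger error, at 15.7, 32.5, 1.69 and 1.47 FPKM (3.21, SE 1.09), and was chosen after its values were seen.

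Cholesterol synthesis genes were higher throughout the pathway. Of 20 genes in the list 19 were tested, and all 19 lay above wildtype in both knockout specimens, where 28.4% of all genes did. Their median log2 difference was 0.41, beside 0.008 over all genes, and it was 0.58 in knockout 1 and 0.27 in knockout 2. None passed over all genes and 3 had an unadjusted p under 0.05, as 0.716% of all genes had on the higher side. Mvd, which completes the activated isoprene unit, was at 35.1, 23.9, 19.3 and 19.2 FPKM (log2 difference 0.56, SE 0.25), and Fdps, which joins such units, at 164, 157, 108 and 109 FPKM (0.56, SE 0.24). Hsd17b7, a late sterol enzyme, was at 14.2, 12.2, 9.15 and 9.11 FPKM, and Acat2, at the entry of the pathway, at 31.8, 29.5, 24.5 and 23.6 FPKM. Of the genes that regulate sterols, Abca1, which exports cholesterol, was lower at 1.59, 1.58, 4.38 and 4.06 FPKM (-1.02, SE 0.39). The regulator Srebf2 itself differed by 0.094 (SE 0.15).

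Promoters of this pathway share the CCAAT box, at which NF-Y works beside SREBP at many sterol genes. The bases before the RefSeq start are printed for the 2 genes with the smallest p among those with an entry, Mvd and Hsd17b7, and for Hmgcs1, which holds the sterol element TCACCCCAC. Capitals mark CCAAT or its complement ATTGG, and in Hmgcs1 also TCACCCCAC; both strands were searched, and the motifs do not overlap (RefSeq, GRCm38.p6).
Hmgcs1 (chr13:119690101-119690350, plus strand): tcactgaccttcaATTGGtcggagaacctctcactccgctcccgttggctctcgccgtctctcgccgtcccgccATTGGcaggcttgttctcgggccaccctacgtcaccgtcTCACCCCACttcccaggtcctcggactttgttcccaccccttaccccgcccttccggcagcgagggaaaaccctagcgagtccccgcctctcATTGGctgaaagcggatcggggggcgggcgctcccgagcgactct
Mvd (chr8:122443423-122443672, minus strand): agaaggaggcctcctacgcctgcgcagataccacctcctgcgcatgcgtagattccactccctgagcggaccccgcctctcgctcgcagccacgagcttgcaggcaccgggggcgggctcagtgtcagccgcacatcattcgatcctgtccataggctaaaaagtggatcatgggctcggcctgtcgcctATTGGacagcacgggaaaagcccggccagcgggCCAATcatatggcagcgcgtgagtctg
Hsd17b7 (chr1:169969242-169969455, minus strand): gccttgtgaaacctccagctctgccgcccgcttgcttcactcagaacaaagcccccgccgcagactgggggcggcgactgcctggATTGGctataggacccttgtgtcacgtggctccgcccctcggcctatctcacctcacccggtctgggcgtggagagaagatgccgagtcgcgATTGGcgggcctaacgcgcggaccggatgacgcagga
For Hsd17b7 the last 36 bases before the start are left out, since GENCODE places them in an exon. Of the 19 tested genes 14 had an entry in the promoter table, and 13 of these 14 (92.9%) held CCAAT in the 250 bases before the start, against 37.5% of all 27025 symbols, 6 of 15 glycolysis genes and 4 of 11 respiratory chain genes. Acat2 was the member without it. Entries for Fdps, Fdft1 and Sqle were among those missing. TCACCCCAC was found in 1 of the 14 and in 0.555% of all symbols. These are matches of letters, not measured binding.

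Glycolysis genes were higher to a similar degree. Of 15 genes tested 14 lay above wildtype in both knockout specimens, the median log2 difference was 0.37 (0.38 in knockout 1 and 0.33 in knockout 2), and 3 had an unadjusted p under 0.05. For all genes these shares were 28.4% above and 0.716% with such a p on the higher side. Aldolase, Aldoa, was at 525, 513, 376 and 375 FPKM, enolase, Eno1, at 703, 705, 513 and 499 FPKM, and pyruvate kinase, Pkm, at 778, 752, 564 and 567 FPKM. The lactate exporter Slc16a3 was at 29.7, 32.6, 19.5 and 19.2 FPKM. The values of the knockout specimens were close together for these 4 genes, with log2 differences of 0.43 to 0.66. Genes of the respiratory chain were higher by less, all 18 of 18 above wildtype in both knockout specimens with a median of 0.18 and differences from 0.11 to 0.30, none with an unadjusted p under 0.05. With quantile normalisation the medians were 0.083 for the respiratory chain and 0.24 for glycolysis. Epithelial markers, with a median of 0.15 (0.053 with quantile normalisation) and 10 of 13 above wildtype, were of the same sign, and their part in both lists was not tested. Cox5a, a subunit of cytochrome c oxidase, was at 1061, 1003, 832 and 845 FPKM.

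Fat metabolism showed single genes rather than a pathway. Oxct1, the enzyme that lets cells burn ketone bodies, was at 168, 157, 78.1 and 78.9 FPKM (log2 difference 1.04, SE 0.24, adjusted p = 0.482 by limma). The list of ketone and fat oxidation genes that holds it was near wildtype, with a median of -0.030 over 17 genes and 4 above and 7 below wildtype in both knockout specimens. Across all genes 28.4% lay above and 25.0% below. Scd1, a desaturase that makes monounsaturated fat, was at 6.88, 2.66, 47.8 and 42.9 FPKM (-3.12, SE 0.60, adjusted p = 0.186 by limma), while its relative Scd2 was at 39.1, 24.6, 17.2 and 18.9 FPKM (0.75, SE 0.28). Thrsp, a lipogenic gene of fat and liver, was at 1.67, 3.70, 15.3 and 13.7 FPKM, and Fasn, the fatty acid synthase, at 15.9, 14.1, 21.6 and 20.0 FPKM. Scd1 and Thrsp are strongly expressed in adipocytes, and adipocyte markers were lower in the same specimens. Their part in these values was not tested.

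Most cytochrome P450 genes, which oxidise foreign compounds, were at lower levels in knockout. Of 14 cytochrome P450 genes 11 lay below wildtype in both knockout specimens and 2 above, with a median log2 difference of -0.80, which was -0.35 in knockout 1 and -1.01 in knockout 2, and 1 had an unadjusted p under 0.05. The shares of all genes were 25.0% below, 28.4% above and 1.92% with such a p on the lower side. Cyp2c29 was at 37.2, 2.27, 63.2 and 68.9 FPKM (-2.59, SE 1.10), Cyp2j6 at 89.5, 39.9, 112 and 116 FPKM and Cyp3a25 at 175, 119, 297 and 300.0 FPKM. Cyp1a1, a target of the aryl hydrocarbon receptor, was one of the exceptions at 25.7, 7.72, 5.28 and 5.30 FPKM. Several members of these families are close copies, so reads may be shared among them. In the list of detoxification genes the sign was mixed, with 8 of 19 above and 7 below wildtype. Gclc, which limits glutathione synthesis, was higher at 30.9, 42.6, 24.1 and 24.3 FPKM (0.57, SE 0.22), and Ces2a, a carboxylesterase, lower at 128, 46.1, 258 and 257 FPKM (-1.73, SE 1.20).

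Markers of fat, vessels and macrophages were lower in knockout duodenum. Adipocyte markers had a median log2 difference of -2.13 over 11 genes (-2.57 in knockout 1 and -1.44 in knockout 2), with 9 below wildtype and 1 above in both specimens, and 7 with an unadjusted p under 0.05, as 1.92% of all genes had on the lower side. In both specimens 25.0% of all genes lay below and 28.4% above. Plin1, the coat protein of fat droplets, was at 0.179, 1.16, 6.20 and 5.72 FPKM (-2.13, SE 0.36, adjusted p = 0.124 by limma). The hormone adiponectin, Adipoq, was at 1.15, 4.33, 25.8 and 21.6 FPKM, Lpl, the lipoprotein lipase, at 1.58, 3.90, 15.3 and 14.0 FPKM, and Fabp4 at 33.1, 53.8, 142 and 137 FPKM. Mrap, a melanocortin receptor partner of fat cells that is on no list, had the smallest p of all genes, at 0.0819, 0.383, 2.00 and 2.05 FPKM (-1.29, SE 0.17, adjusted p = 0.0822 by limma), and was chosen after its values were seen. The list's summed level was 153 and 227 FPKM in knockout against 513 and 484 FPKM in wildtype. In colon of the same animals the median was -0.90, from separate specimens.

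All 12 endothelial markers lay below wildtype in both knockout specimens, with a median log2 difference of -0.43 and 9 of 12 at an unadjusted p under 0.05. As background, 25.0% of all genes lay below and 1.92% had such a p on the lower side. Plvap, the diaphragm protein of fenestrated capillaries, was at 36.8, 37.2, 55.5 and 57.6 FPKM (-0.60, SE 0.14, adjusted p = 0.482 by limma). Kdr, the receptor of vascular endothelial growth factor, was at 3.74, 3.87, 6.05 and 5.79 FPKM. Other vessel genes among the smallest p of negative sign were the coreceptor Eng (6.93, 8.31, 11.2 and 11.4 FPKM), the receptor Acvrl1 (4.79, 5.46, 8.46 and 7.94 FPKM), the pericyte receptor Pdgfrb (3.14, 2.98, 5.50 and 5.76 FPKM) and Nkx2-3, a factor of gut mesenchyme and vessels (8.63, 7.79, 12.6 and 12.2 FPKM). The 6 tested lymphatic markers were all of negative sign with a median of -0.23 (-0.38 in knockout 1 and -0.10 in knockout 2), and 4 lay below wildtype in both specimens. Haemoglobin RNA was lower too, with Beta-s at 31.7, 16.7, 76.3 and 73.4 FPKM. The near-identical gene Hbb-b1, whose reads may be shared with it, differed between runs, at 0.000823 and 5.89 FPKM in runs 1 and 2 of knockout 1, 0.00133 and 1.54 in knockout 2, 14.0 and 18.3 in wildtype 1, and 8.13 and 14.7 in wildtype 2.

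Of 17 macrophage markers 12 lay below and 2 above wildtype in both knockout specimens, with a median log2 difference of -0.43 and 7 at an unadjusted p under 0.05. Beside them, 25.0% of all genes lay below and 28.4% above, and 1.92% had such a p on the lower side. Ms4a7 was at 5.11, 5.06, 10.1 and 10.2 FPKM (-0.88, SE 0.23), the growth factor receptor Csf1r at 14.8, 14.3, 25.0 and 24.4 FPKM (-0.73, SE 0.21) and the monocyte gene Ly6c2 at 8.55, 7.85, 16.4 and 17.2 FPKM. Complement C1qc was at 32.5, 32.6, 48.9 and 49.7 FPKM. Fibroblast markers were lower by less, with 8 of 11 below wildtype, a median of -0.20 and no unadjusted p under 0.05. Smooth muscle markers were level, with a median of 0.061 over 10 genes and actin Acta2 at 155 to 161 FPKM. Muscle genes of the gut wall were thus at like levels in the specimens, beside lower markers of fat, vessels and macrophages.

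**Figure D4:**
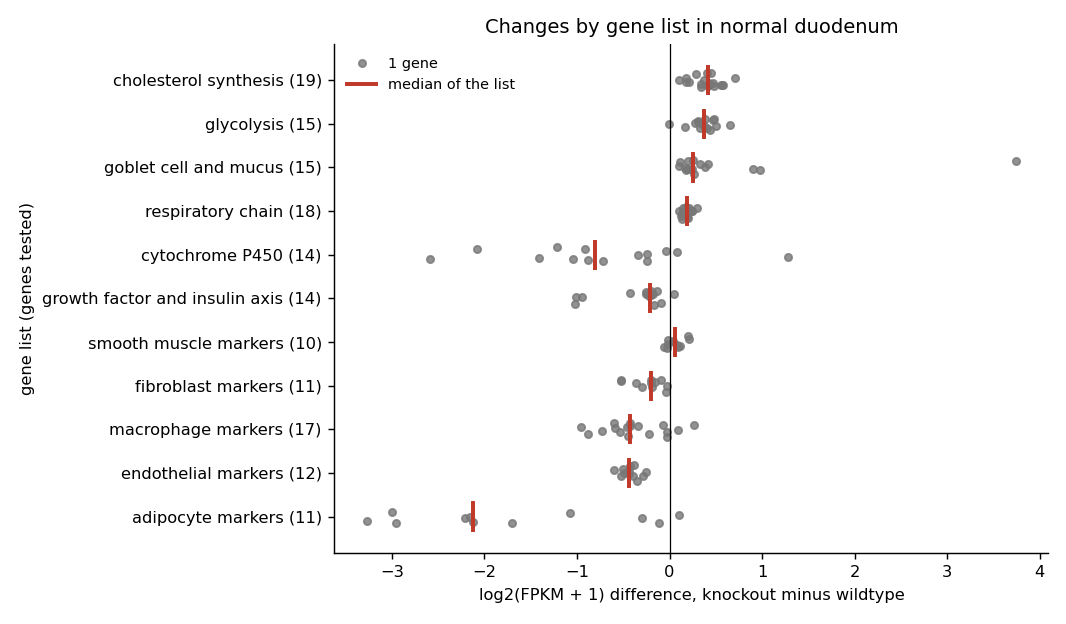
Log2(FPKM + 1) difference between knockout and wildtype (horizontal axis) of the tested genes of 11 lists (vertical axis, number of genes in brackets). Each grey point is 1 gene and each red bar the median of its list. Adipocyte markers reach a median of -2.13, while cholesterol synthesis and glycolysis genes lie to the right of 0 with medians of 0.41 and 0.37.

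Genes of growth hormone and insulin-like growth factor signalling were lower as well. Of 14 genes 12 lay below wildtype in both knockout specimens and 0 above, with a median log2 difference of -0.21 and 4 at an unadjusted p under 0.05. Of all genes 25.0% lay below and 28.4% above, and 1.92% had such a p on the lower side. The growth hormone receptor Ghr was at 6.23, 6.43, 13.8 and 13.6 FPKM (-1.01, SE 0.20, adjusted p = 0.274 by limma). The carrier Igfbp3 was at 20.5, 17.5, 40.0 and 39.2 FPKM (-1.03, SE 0.24), and Igfbp6 at 2.16, 1.52, 4.53 and 4.23 FPKM. Among other genes of small p, the endothelin receptor Ednrb was at 4.83, 4.34, 8.65 and 9.14 FPKM and the ATP-gated channel P2rx1 at 3.76, 3.15, 6.93 and 7.22 FPKM. Groups that do not overlap were part of the rule that named the genes of small p, so their separation is no separate result. Ghr and Igfbp3 are also expressed by fat and vessel cells, whose markers were lower, and their part was not tested.

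Among stress genes the heat shock list split by specimen, while the other lists described here had positive medians in both knockout specimens. Immediate early genes, which respond to stimulation within minutes, had 14 of 16 positive differences and 10 above wildtype in both knockout specimens. Their median was 0.22 (0.27 in knockout 1 and 0.17 in knockout 2). Over all genes 52.4% of the differences were positive, and 28.4% of genes lay above. Fos was at 92.4, 100.1, 38.9 and 41.3 FPKM (log2 difference 1.24, SE 0.44) and Atf3 at 10.5, 10.7, 5.82 and 5.79 FPKM. Genes of the unfolded protein response had 15 of 18 above wildtype and a median of 0.23 (0.10 in knockout 1 and 0.33 in knockout 2), led by Atf4 at 166, 178, 134 and 135 FPKM (0.35, SE 0.16). Heat shock genes set the knockout specimens apart. Hspa1a was at 0.817, 35.0, 2.04 and 1.61 FPKM and Hsp90aa1 at 123, 292, 131 and 130.4 FPKM, and the median of the list was -0.084 in knockout 1 and 0.89 in knockout 2. Amphiregulin, Areg, an epidermal growth factor receptor ligand, was at 29.9, 19.5, 9.05 and 9.69 FPKM (1.29, SE 0.53).

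The themes that the design text names, stem cells, Wnt and inflammation, held small median differences. In each list a larger share lay below wildtype in both knockout specimens than the 25.0% of all genes that did. A smaller share lay above than the 28.4% of all genes. Of 20 Wnt target genes 3 lay above and 11 below wildtype in both knockout specimens, with a median log2 difference of -0.15. Cyclin D1, Ccnd1, was higher at 25.4, 28.7, 20.9 and 20.2 FPKM and the feedback gene Apcdd1 lower at 0.965, 1.13, 2.08 and 2.15 FPKM. Of 17 stem cell genes 2 lay above and 8 below, with a median of -0.11, which was -0.16 in knockout 1 and -0.017 in knockout 2. Lgr5, the receptor that marks crypt base stem cells, was at 1.62, 2.31, 2.91 and 3.12 FPKM and Olfm4 at 204, 330.0, 367 and 363 FPKM. None of the members of either list had an unadjusted p under 0.05. Among 20 inflammatory genes 3 lay above and 10 below, with a median of -0.13 and only the chemokine Cxcl10 at an unadjusted p under 0.05, at 4.34, 3.63, 10.5 and 9.23 FPKM (-1.14, SE 0.35). Interferon genes were mixed, Ifit3 being lower at 11.6, 11.3, 21.8 and 21.3 FPKM (-0.85) and Mx1 higher at 2.68, 3.72, 1.84 and 1.83 FPKM (0.55). Proliferation genes were near wildtype, with a median of 0.065 over 22 genes.

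The knockout specimens differed from each other in genes of other organs and of lymphoid tissue. They were at least 2-fold apart on the log2(FPKM + 1) scale in 237 genes, where the wildtype specimens were in 9. Chymotrypsinogen, Ctrb1, was at 491, 0.357, 1.89 and 1.07 FPKM and trypsinogen, Prss2, at 176, 0.248, 1.11 and 0.644 FPKM. The 11 tested pancreatic acinar genes had a median log2 difference of 3.94 in knockout 1 and -0.49 in knockout 2. By their medians, B cell genes were also higher in knockout 1 and lower in knockout 2 than in wildtype, at 1.13 and -1.05. However, 2 of the 13 tested members lay below wildtype in both knockout specimens. The summed level of the list was below wildtype in both, at 681, 471, 853 and 850 FPKM. The class II gene H2-Aa was at 559, 143, 234 and 231 FPKM. All 9 class II genes had positive fitted differences although none separated the groups. In knockout 2 the gastric peptide Tff1 was at 7.29 FPKM, against 0 in knockout 1 and 0.149 to 0.170 FPKM in wildtype. Without knockout 2 the count of genes past the adjusted p was 18, of which 6 were pancreatic and 4 B cell genes, and without knockout 1 it was 1.

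**Figure D5:**
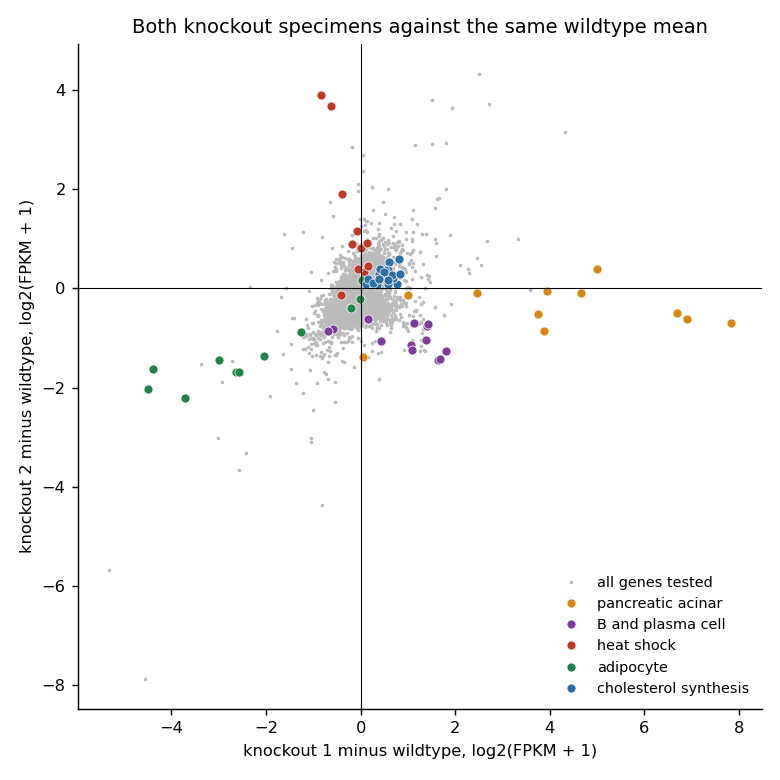
Log2(FPKM + 1) difference from the wildtype mean in knockout 1 (horizontal axis) and knockout 2 (vertical axis), 1 point per gene, for all 14098 tested genes in grey and 5 lists in colour. All cholesterol synthesis genes and most adipocyte genes lie on the same side of 0 in both specimens, while most pancreatic and B cell genes are high in knockout 1 and most heat shock genes in knockout 2. The axes share the wildtype mean, which by itself makes their values alike.

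The change in duodenum was set against that in colon of the same 4 animals. No gene passed the test of the difference (0 of 14098 by limma, 0%; 314 or 2.23% had an unadjusted p under 0.05). Cholesterol synthesis had a median of 0.68 in colon and 0.41 in duodenum, and 0 of 19 members differed at an unadjusted p under 0.05. Goblet cell genes were of positive sign in both, with a colon median of 0.48. Macrophage markers had a median of -0.43 in duodenum and -0.013 in colon, and 7 of 17 members differed at an unadjusted p under 0.05. Csf1r had a difference of changes of -0.65 (SE 0.27). Of 22 proliferation genes 8 differed, with a colon median of 0.46. Oxct1 was at 79.1 and 117 FPKM in knockout colon and 113 and 112 FPKM in wildtype colon, a difference of changes of 1.26 (SE 0.31), and Gprin1 had one of 1.09 (SE 0.24). The run 1 columns of wildtype colon 2 stand apart from its other columns, and without them the counts of 7 macrophage and 8 proliferation genes were the same.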

How the data were processed

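The deposited table holds FPKM values per gene, made by the authors with TopHat2 2.0.13 and Cuffnorm on mm10, per the submitters' processing notes. RNA was polyA-selected, and each duodenum specimen has columns from 2 runs and 2 lanes, which are technical repeats. Of 23356 rows, 27 have names that a spreadsheet turned into dates and were not matched to genes. Values were averaged per specimen as log2(FPKM + 1), and genes with at least 1 FPKM in 2 specimens were kept, which left 14098. Fold changes on this scale understate those of low genes. FPKM gives relative depth only, so no counting interval is given. limma 3.58.1 (R 4.3.3) was fitted over all 12 groups of the series, so that they share an estimate of the spread, with Benjamini-Hochberg adjustment over all genes. The near-identical wildtype duodenum specimens were averaged to 1 sample. The labels give animal numbers but do not say how samples were taken. The p-values rest on the spread between specimens pooled over the 12 groups, most of them colon or tumour groups. Wildtype duodenum, counted as 1 sample, adds nothing to that spread. Some tumour groups are pairs of specimens with the same animal number, so part of the spread lies within an animal. The method was tested on simulated data in which all specimens varied independently. The wildtype duodenum pair does not vary in that way, so the simulation does not speak for that part of the design. Named genes are Cftr, Apc, the ion transport list, the 15 genes of each sign with the smallest p among those that reach 5 FPKM in a group and do not overlap between groups, genes past the adjusted p with wildtype as 2 samples, and, from each list described, at most 4 members ranked by p, or the whole list where it is described by specimen. Reg3b, Duoxa2, Lypd8, Saa1, Lcn2, Nos2, Pigr, Muc2, Tff3, Lyz1, Itln1, Defa24, Hspa1a, Hsp90aa1, Ctrb1 and H2-Aa come from lists described by specimen. Fabp1, Sis, Muc6, Ddx3y, Xist, Defa4, Tpst2, B3galt5, Hmgcs1, Srebf2, Mrap, Acta2 and Olfm4 lie outside the rule and were chosen after their values were seen. The specimens, lists and tests were chosen with earlier results of these data known. Gene positions are from GENCODE (GRCm38) and promoter sequences from RefSeq (GRCm38.p6). The alternatives changed how wildtype was counted, the samples in the fit, the pseudocount (0.1), the filter (none) and the scaling (quantiles), took each run alone, left out each specimen, or added a replicate block. Some genes that the naming rule selects are not reported here.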

Additional observations from a re-analysis of the deposited data

Results flagged for a closer look

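Ms4a7, a macrophage marker, had opposite signs in duodenum and colon in every specimen. It was at 5.11, 5.06, 10.1 and 10.2 FPKM in duodenum and at 8.83, 8.93, 8.34 and 7.86 FPKM in colon, in the order knockout 1, knockout 2, wildtype 1 and wildtype 2. The change in duodenum minus that in colon was -0.998 on the log2 scale (SE 0.29), and it did not pass the test over all genes (adjusted p = 1 by limma).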

How the results depend on the processing

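The count of 0 genes past an adjusted p of 0.05 depended on how wildtype duodenum was counted and on single libraries. It was 33 with the wildtype specimens as 2 samples, 29 with no filter on low values, 1 with normal duodenum and colon alone, 1 with run 2 alone, and 0 to 18 when a specimen was left out, the highest without knockout 2. With a replicate block and wildtype as 2 samples it was 22, all among the 33. Whether the replicate numbers pair the specimens could not be checked, since the wildtype specimens differ only by the noise between lanes. The count for duodenum against colon was 5 with no filter, 1 with run 2 alone and 0 to 67 without a specimen, again highest without knockout 2. It was 0 with the replicate block, with a block by animal and without the run 1 columns of wildtype colon 2, of which the last 2 alternatives were added after the data were seen. Leaving out a specimen turned the sign of the median for heat shock genes (-0.0836 to 0.886), ketone and fat oxidation (-0.122 to 0.0265), interferon (-0.0634 to 0.195), pancreatic acinar (-0.488 to 3.94), B cell (-1.05 to 1.13), class II (-0.668 to 1.26), proliferation (-0.0205 to 0.109) and detoxification genes (-0.046 to 0.0565). A pseudocount of 0.1 gave -0.22 for B cell genes, and quantile normalisation -0.0349 for detoxification genes. The cause was not tested. Of the list medians 26 of 31 moved by over 1.5 times with the same sign in at least 1 setting. Quantile normalisation lowered those of ion transport (0.0904 to 0.00514), glycolysis (0.368 to 0.235), the respiratory chain (0.184 to 0.0829) and epithelial markers (0.147 to 0.0532), while the median of all genes was 0.011 under it. Apart from the 8 lists whose sign turned, the medians of 23 lists kept their sign in all 13 alternatives, as did the log2 differences of the 43 genes for which one is given. Where an arm was left with 1 specimen, that specimen was assumed to vary like the other groups. With 2 knockout animals and a wildtype group that counts as 1 sample, small differences are not detectable.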
